A study of Gallus gallus with 18 samples.

Results

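Nodal and activin are secreted signals of the TGF-beta family, and 8 genes of their pathway were followed in the primitive streak of single chicken embryos: the ligand NODAL, the receptors ACVR2A and ACVR2B, the signal transducers SMAD2, SMAD3 and SMAD4, the activin inhibitor FST and the transcriptional repressor TGIF1. The genes were looked up by symbol in the probe annotation of the array, and all their probesets were taken. A probeset is a group of short probes that are read together as 1 signal. In all, 10 of the 38535 probesets on the array read 7 of the 8 genes, and SMAD4, which no probeset read under that symbol, was not analysed here. SMAD2 (1 probeset) and FST (2 probesets) lie on the Z chromosome of the GRCg7b annotation, and the other 7 probesets read autosomal genes.

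The arrays came from 9 female (ZW) and 9 male (ZZ) White Leghorn embryos at Hamburger and Hamilton stage 4, day 1 of incubation, with 1 Affymetrix chicken array for each embryo. The dissected tissue was a square with sides of 400 micron from the level between 70% and 90% of the streak, which held the streak proper, the epiblast beside it and all germ layers, and it was taken after 3 h of culture outside the egg. The study had assigned the sex of each embryo from the expression of the W-linked gene PKCIW, also called HINTW. Some embryos had been electroporated with plasmids such as a fluorescent reporter. The study pooled all embryos because its sex-biased genes did not differ statistically between electroporated and control embryos of a sex. Since the labels do not say which embryos were electroporated, a part of that treatment in the values below was not tested.

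The expression values were MAS5 signals, array intensities that the authors had scaled so that the trimmed mean of every array was 500. A detection level of 130.2 was set on this scale, and 13760 to 15174 probesets of an embryo lay over it. The marker genes fitted the labelled tissue in part: the streak gene TBXT (21977 to 39141) and the paraxial mesoderm gene MSGN1 (3339 to 27318) were over the level in all 18 embryos, and so were the endoderm genes SOX17 and HHEX, the node genes CHRD and FOXA2 and the yolk sac genes APOA1 (964 to 3042) and VTN (3830 to 5719), while the streak gene WNT3, the node gene SHH, the endoderm gene GATA4, the globin gene HBZ and the yolk sac gene APOB were over it in none. The summed signal of the streak list (7 of 8 genes with a probeset) was 28764 to 57925 in females and 41260 to 67459 in males, that of the endoderm list (4 of 4) was 8895 to 26383 and 15316 to 29820, and that of the blood list (3 of 5) was 242 to 657 and 175 to 467. The node list (5 of 5) summed to 965 to 8005 in females and 1281 to 8289 in males, and the yolk sac list (4 of 4) to 5484 to 7301 and 5603 to 8468. The epiblast and early neural list (4 of 4) summed to 3428 to 6945 in females and 3935 to 7089 in males. Of its genes, SOX3, OTX2 and CDH1 were over the level in all 18 embryos and SOX2 in 8. Among the blood genes LMO2 was over the level in 12 embryos and TAL1 in 9, and the node gene NOTO was over it in 17. The list sums add linear signals, so their brightest genes carry them. The streak sum rests mainly on TBXT and MSGN1 (medians 30174 and 20309) and the endoderm sum on SOX17 (16470). The sums thus do not measure how much of a tissue was present. Female 9 (-42.6), male 8 (-38.42), male 5 (-33.22) and male 6 (-22.53) lay at one end of the first principal component of the signals. This component held 17.4% of the variance, and male 9 (-12.03) and female 6 (-11.11) came next, so male 6 was not clearly apart. Some results that may rest on female 9 and males 5, 6 and 8 are also given without them, but not all.

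NODAL and activin ligands bind serine/threonine kinase receptors of type II, which include ACVR2A and ACVR2B, and these activate type I receptors. The type I receptors phosphorylate SMAD2 and SMAD3, which join SMAD4 and enter the nucleus to regulate transcription with other factors. NODAL also needs a coreceptor of the EGF-CFC family, FST binds and blocks activin outside the cell, and TGIF1 represses transcription together with the SMAD proteins. In vertebrate gastrulae the pathway is known as an inducer of mesoderm and endoderm.

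The sexes differed clearly in 1 member gene. SMAD2 was about 2-fold higher in males, every male lay above every female, and the members on autosomes did not pass the test. FST, which is on Z like SMAD2, had a male mean over 2-fold that of females, but its signal varied so much between embryos of a sex that the difference did not pass either. Of the 10 probesets, 7 were over the detection level in at least 9 of the 18 embryos and were tested, and the other 3 (NODAL, and the second probesets of ACVR2A and SMAD3) were over the level in no embryo.

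NODAL was read by 1 probeset (chromosome 22), whose signal was 9.24 to 67.7 in females (median 29.3) and 12 to 97 in males (median 26.6). Both ranges overlapped over most of their width and lay under the detection level in all 18 embryos. In 16 embryos the signal was even below the median of all probesets of the array, which ran from 64.1 to 84.8. A signal under the level is common on this array, since 47.9% of all probesets were over it in no embryo. The log2 difference between the sexes (male minus female throughout), fitted without the filter on dim probesets, was 0.43 ± 0.49 (SE) with an adjusted p of 0.969. NODAL was thus not detectable over this level with its probeset, which says nothing on whether the transcript was absent.

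Among the receptors, ACVR2A, a type II receptor of activins and NODAL on chromosome 7, had signals from 6744 to 9885 in females (median 8209) and from 6886 to 11554 in males (median 8776). The groups overlapped almost fully. The mean was 8168 ± 1111 (SD, n = 9) in females and 8876 ± 1327 in males, and the log2 difference was 0.12 with a 95% interval from -0.09 to 0.33 (limma, adjusted p = 0.85, exact permutation p = 0.24). A second ACVR2A probeset had means of only 87.2 ± 29.8 and 63.6 ± 41.4 and was over the level in no embryo, although it reads the same gene as the bright probeset.

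ACVR2B, the other type II receptor, on chromosome 2, was the brightest member probeset and the least variable one. Its signal was 12991 to 19161 in females (median 16199) and 12782 to 19290 in males (median 15307), so that the ranges of the sexes nearly coincided. The means were 15951 ± 1855 and 15560 ± 1716 (SD, n = 9), and the log2 difference was -0.03 with a 95% interval from -0.21 to 0.14 (limma, adjusted p = 0.966, exact permutation p = 0.654). Signals of different probesets also depend on their probes, so the order of these levels says nothing about the number of transcripts.

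**Figure D1:**
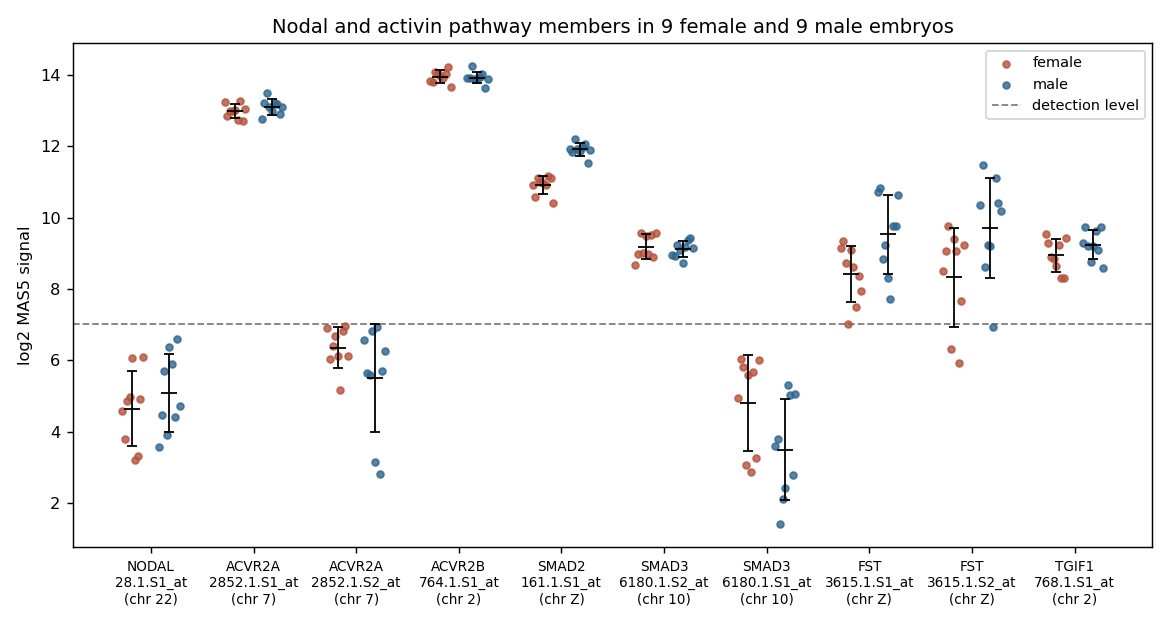
Log2 MAS5 signal (vertical axis) of the 10 member probesets in each of 9 female and 9 male embryos, with the chromosome under each probeset. Points are embryos, black bars the mean and SD of a sex, and the dashed line the detection level. The sexes are fully apart for SMAD2 alone, both FST probesets are spread widely, and NODAL and the second probesets of ACVR2A and SMAD3 stay under the level.

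SMAD2, the Z-linked transducer of NODAL and activin signals, had a signal of 1355 to 2293 in females (median 2004) and of 2955 to 4714 in males (median 3841). No value of one sex fell within the range of the other. The means were 1943 ± 311 and 3885 ± 479 (SD, n = 9), a ratio of 2.00, and the log2 difference was 1.01 ± 0.11 (SE) with a 95% interval from 0.78 to 1.23. With limma the adjusted p was 3.97e-06, and the exact permutation p over the 48620 ways to divide the embryos was 4.11e-05, the smallest that these can give. In a tissue sample, fewer cells that express a gene and less of its RNA in each cell cannot be told apart. The difference stayed between 0.98 and 1.01 over 9 other ways to process the data, and between 0.94 and 1.06 when each embryo was left out in turn.

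The count of 1 male-higher probeset among the 7 tested members (SMAD2) stands beside 2.56% male-higher probesets among all 14603 tested, with an adjusted p under 0.05. On Z the share was 51% of 584 tested probesets, and on autosomes it was 0.0635% of 11031. Among the members 1 of 3 tested probesets on Z and 0 of 4 on autosomes were called, and for so few probesets these shares say nothing that is particular to the members. No member was female-higher, where 0.274% of all tested probesets were. The full separation of the sexes, seen for SMAD2 only, was found in 1.18% of all tested probesets, in 25.3% of those on Z and in 0.00907% of those on autosomes. The median log2 difference was 0.57 on Z and -0.02 on autosomes, and SMAD2 had a larger difference than 94.7% of the tested Z-linked probesets. A difference of 1, the ratio of the Z copies of the sexes, lay within the 95% interval of 34.9% of the Z-linked probesets, and SMAD2 and both FST probesets were among these.

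Another probeset, which is not counted as a member, has no gene in the probe annotation used here but was read as SMAD2 by the annotation of the study. Its signal was 3061 to 4336 in females (median 3662) and 5453 to 8634 in males (median 6828), again with no overlap. The ratio of the means was 1.86 and the log2 difference 0.90 ± 0.09 (SE, limma, adjusted p = 2.71e-06).

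SMAD3, the autosomal partner of SMAD2 in the same step of the pathway, is on chromosome 10. Its brighter probeset had signals of 410 to 762 in females (median 517) and 425 to 693 in males (median 567), and the range of males lay within that of females. The means were 597 ± 142 and 561 ± 86.7 (SD, n = 9), with a log2 difference of -0.07 and a 95% interval from -0.35 to 0.21 (limma, adjusted p = 0.952, exact permutation p = 0.613). The other SMAD3 probeset averaged 37.9 ± 24.3 in females and 16.7 ± 14.3 in males and was over the level in no embryo.

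Since SMAD2 and SMAD3 act at the same step, their log2 signals were subtracted in each embryo. SMAD2 less SMAD3 was 0.84 to 2.22 in females (median 1.64) and 2.09 to 3.14 in males (median 2.84). In 8 of the 9 males the value was above that of every female. The mean difference was 1.72 ± 0.43 in females and 2.80 ± 0.30 in males (SD), 1.08 higher in males (exact permutation p = 0.000123, two-sided), so the sex difference of SMAD2 was larger than that of SMAD3. Since the pair was chosen with results of these data known, this p is no support beyond the SMAD2 difference given above. Without female 9 and males 5, 6 and 8, SMAD2 less SMAD3 was 1.02 higher in males. Within 1 probeset the sexes can be compared, but the size of SMAD2 less SMAD3 itself also holds the unequal response of their probes.

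FST encodes follistatin, a secreted protein that binds activin and keeps it from its receptors. Its first probeset had a signal of 130 to 643 in females (median 392) and of 211 to 1816 in males (median 865). Males 2 (1816), 1 (1696) and 9 (1573) were the highest, and 5 males lay above all females, while male 6 (211) was among the lowest embryos of either sex together with females 4 (130) and 7 (180). The means were 383 ± 179 and 934 ± 614 (SD, n = 9), a ratio of 2.44, with a log2 difference of 1.12 and a 95% interval from 0.24 to 2.00 (limma, adjusted p = 0.307, exact permutation p = 0.0262). The interval for this single probeset lay above 0 and held 1, but the p adjusted over all tested probesets missed the threshold of 0.05.

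The second FST probeset showed the same picture with a wider spread. Its signal was 60.4 to 865 in females (median 531) and 121 to 2818 in males (median 1170). Again 5 males lay above all females, females 4 (80) and 7 (60.4) and male 6 (121) were the lowest, and they were under the detection level. The means were 435 ± 277 and 1172 ± 880 (SD, n = 9), a ratio of 2.69, with a log2 difference of 1.39 and a 95% interval from 0.13 to 2.66 (limma, adjusted p = 0.466, exact permutation p = 0.0512). Without female 9 and males 5, 6 and 8 the log2 differences were 1.53 and 1.94, and the adjusted p were 0.0705 and 0.191. When each embryo was left out in turn, neither probeset passed in any of 18 fits, and the lowest adjusted p, 0.0859 and 0.142, were those without male 6.

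TGIF1, a homeodomain repressor that recruits corepressors to SMAD complexes, is on chromosome 2. Its signal was 315 to 741 in females (median 479) and 384 to 852 in males (median 594), and 3 males lay above all females. The means were 514 ± 158 and 628 ± 170 (SD, n = 9), with a log2 difference of 0.30 and a 95% interval from -0.11 to 0.71 (limma, adjusted p = 0.76, exact permutation p = 0.159). For all 4 tested autosomal members the upper end of the interval was under 1, and a 2-fold excess in males was thus outside it.

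The Z-linked members were also set against the autosomal ones within each embryo, as the mean log2 signal of SMAD2 and FST less that of SMAD3, ACVR2A, ACVR2B and TGIF1. A single probeset was used for each gene, the second one for FST. This value was -2.74 to -0.97 in females (median -1.61) and -2.02 to 0.20 in males (median -0.46), and 7 males lay above all females. The mean was -1.65 ± 0.62 in females and -0.53 ± 0.71 in males (SD), 1.12 apart, and no test was made of it since the members had been chosen with results of these data known. Without female 9 and males 5, 6 and 8 the means were 1.39 apart. With the mean over the probesets of a gene they were 1.05 apart in all embryos.

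SMAD2 and FST were also compared with the genes next to them on Z, 5 on each side that had a probeset past the filter. The neighbours of SMAD2 had log2 differences from 0.26 to 1.40 with a median of 0.77, and 9 of the 10 were male-higher. Only SMAD7, an inhibitory SMAD, exceeded SMAD2 with its brightest probeset, and this difference was not called. Another tested SMAD7 probeset had a log2 difference of only 0.38. Around FST the neighbours ran from 0.30 to 0.99 with a median of 0.64, 8 of the 10 were male-higher, and none exceeded the FST probesets. Over all of Z 51% of the tested probesets were male-higher, with a median of 0.57. That share counts every tested probeset of a gene and some dim ones, whereas each neighbour had a single probeset. Whether these neighbours differ from the rest of Z was not tested. SMAD2 thus stood among called neighbours, whereas FST had larger differences than its called neighbours and was not called.

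**Figure D2:**
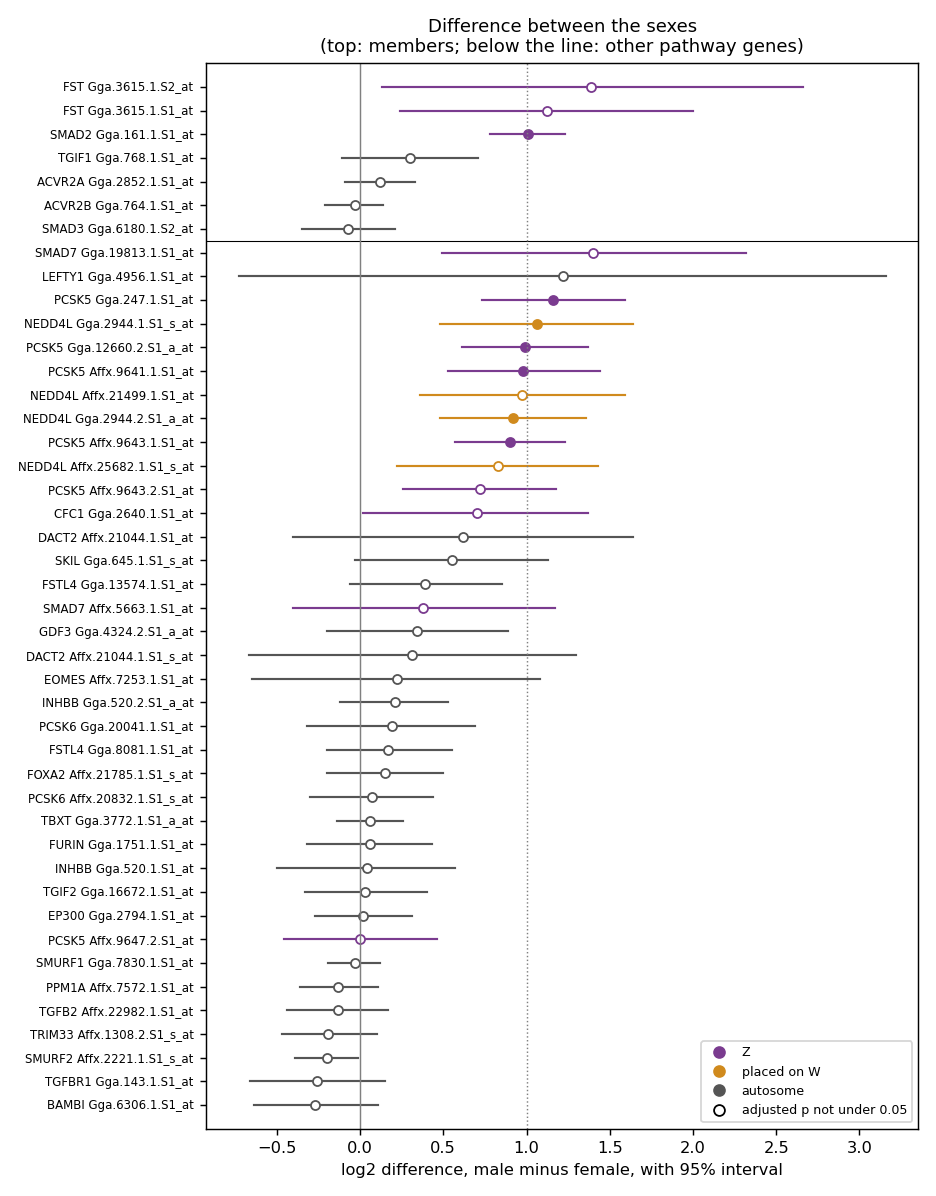
Log2 difference between the sexes, male minus female, with its 95% interval (horizontal axis) for the 7 tested member probesets (above the line) and 37 tested probesets of other pathway genes (below it). Purple marks Z, orange the placement on W and grey autosomes, filled points have an adjusted p under 0.05, and the dotted line is at 1. SMAD2 has a narrow interval around 1, FST a wide one, and filled points among the other genes are PCSK5 and NEDD4L only.

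The members were set into the rest of the pathway with lists of 48 other genes, of which 38 had a probeset and 24 had at least 1 tested. Of their 37 tested probesets 6 were male-higher, all of them of PCSK5 and NEDD4L, and 0 were female-higher, beside 2.56% and 0.274% of all tested probesets. On Z 4 of the 9 tested probesets were called, all of PCSK5, beside 51% of all tested Z-linked probesets. The median log2 difference was 0.22, and it was 0.90 for the 9 probesets on Z, which read only 3 genes with 6 of the 9 from PCSK5, beside 0.57 for all of Z, and 0.06 for the 24 on autosomes, none of which was called.

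Among the ligands (4 tested probesets, 0 called, median 0.12), GDF3, a relative of NODAL that acts through the same receptors in the mouse, had means of 928 ± 384 in females and 1216 ± 580 in males (adjusted p = 0.825). INHBB, the activin B subunit, averaged 298 ± 96.4 and 313 ± 118, and TGFB2 averaged 252 ± 31.2 and 235 ± 55.7. The sexes overlapped in all of them.

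Of the receptors and coreceptors 2 probesets were tested and 0 called (median 0.22). TGFBR1, the type I receptor of TGF-beta, had means of 4806 ± 1473 and 4046 ± 1414 (log2 difference -0.26, adjusted p = 0.82). CFC1, the EGF-CFC coreceptor that NODAL needs, is on Z, and its signal was 2499 to 12532 in females (median 5303) and 4428 to 17524 in males (median 8666). The groups overlapped, with 3 males above all females, and the log2 difference of 0.70 ± 0.32 (SE) did not pass (adjusted p = 0.535). The type I receptors of NODAL and activin, ACVR1B and ACVR1C, were over the detection level in no embryo, and they are named here after their values were seen.

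Of the SMADs and their partners 4 probesets were tested and 0 called (median 0.20). SMAD7, which blocks type I receptors and is on Z close to SMAD2, was over the detection level in 2 females and 7 males with its brightest probeset. Its signal was 23.2 to 260 in females (median 83.7) and 54.5 to 405 in males (median 214). The log2 difference of 1.40 ± 0.44 (SE) had an adjusted p of 0.134, and 9 of the 18 values behind it were under the detection level. Another tested SMAD7 probeset was over the level in 2 females and 2 males, with a log2 difference of 0.38 (limma, adjusted p = 0.874). The remaining SMAD7 probeset was over it in no embryo and had -0.42 in the fit without the filter. The SMAD7 probesets thus did not all give the same picture. The coactivator EP300 averaged 677 ± 153 and 684 ± 126, and the ubiquitin ligase TRIM33 averaged 391 ± 92.7 and 340 ± 57.3.

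Of the antagonists and repressors 15 probesets were tested, and 2 were called (median 0.39), both of NEDD4L, a ubiquitin ligase that marks activated SMAD2 and SMAD3 for breakdown in mammalian cells. The brightest NEDD4L probeset had a signal of 1279 to 3540 in females (median 1569) and 2161 to 5131 in males (median 3227), and 4 males lay above all females. The log2 differences of its called probesets were 0.92 (adjusted p = 0.0153) and 1.06 (adjusted p = 0.0399). The other tested ones had 0.97 (adjusted p = 0.11) and 0.83 (adjusted p = 0.235). GRCg7b places this gene on the W chromosome, which males lack, yet all 9 males were over the detection level with each of the 4 tested probesets. Which other copy these probesets read in males, for example one on Z, was not tested, and they are not among the probesets counted on Z.

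The other antagonists did not pass the test. SMURF2, a ubiquitin ligase named here after its values were seen, averaged 235 ± 24.9 in females and 205 ± 26.4 in males, and its log2 difference of -0.20 was larger than its SD within a sex of 0.18 (exact permutation p = 0.0296) but had an adjusted p of 0.514. BAMBI, a decoy receptor, averaged 7074 ± 1502 in females and 6015 ± 1880 in males (adjusted p = 0.778), and SMURF1, the relative of SMURF2, averaged 1672 ± 140 and 1634 ± 154. LEFTY1, a secreted NODAL antagonist and target of the pathway, was 102 to 6365 in females (median 244) and 139 to 7806 in males (median 989), with a log2 difference of 1.22 and an adjusted p of 0.825. It varied within a sex more than 99.9% of all tested probesets.

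The convertases cut precursors of TGF-beta family ligands to their active form. PCSK5, on Z, had 6 tested probesets, of which 4 were male-higher. The brightest of them had a signal of 3035 to 7226 in females (median 4456) and 5469 to 11569 in males (median 8534), and 7 males lay above all females. Its means were 4717 ± 1251 and 8722 ± 1845 (SD, n = 9), with a ratio of 1.85 and a log2 difference of 0.90 ± 0.16 (SE, limma, adjusted p = 0.00117). The other called PCSK5 probesets had log2 differences of 1.16, 0.99 and 0.98, while the remaining ones had 0.72 (adjusted p = 0.117) and 0.00 (adjusted p = 0.999), so the probesets of this gene did not all give the same picture. The autosomal convertases PCSK6 (3235 ± 1487 and 3589 ± 1285) and FURIN (220 ± 62.5 and 223 ± 48) overlapped between the sexes.

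Of the pathway's targets 3 probesets were tested and 0 called (median 0.15). TBXT, the brachyury gene, averaged 30006 ± 4210 in females and 31163 ± 3873 in males (log2 difference 0.06, adjusted p = 0.935). FOXA2 averaged 514 ± 119 and 576 ± 178, and EOMES 256 ± 195 and 293 ± 235.

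Variation between embryos of a sex differed widely among the members. The SD of log2 signal within a sex was 0.16 for ACVR2B, 0.20 for ACVR2A, 0.22 for SMAD2 and 0.29 for SMAD3. It was 0.44 for TGIF1 and 0.96 and 1.39 for the FST probesets. When all tested probesets were put into 10 bins of mean signal, each probeset was ranked by its SD within its bin. There the FST probesets were at percentiles 98.8 and 99.6, TGIF1 at 78.4, ACVR2A at 75.8, SMAD2 at 59.7, ACVR2B at 54.6 and SMAD3 at 41.5. The highest signal of FST was 4.95-fold the lowest in females and 8.61-fold in males with the first probeset, against 1.69-fold and 1.6-fold for SMAD2. FST thus had the widest spread of the tested members, and SMAD2 varied much less between embryos of a sex than between the sexes.

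**Figure D3:**
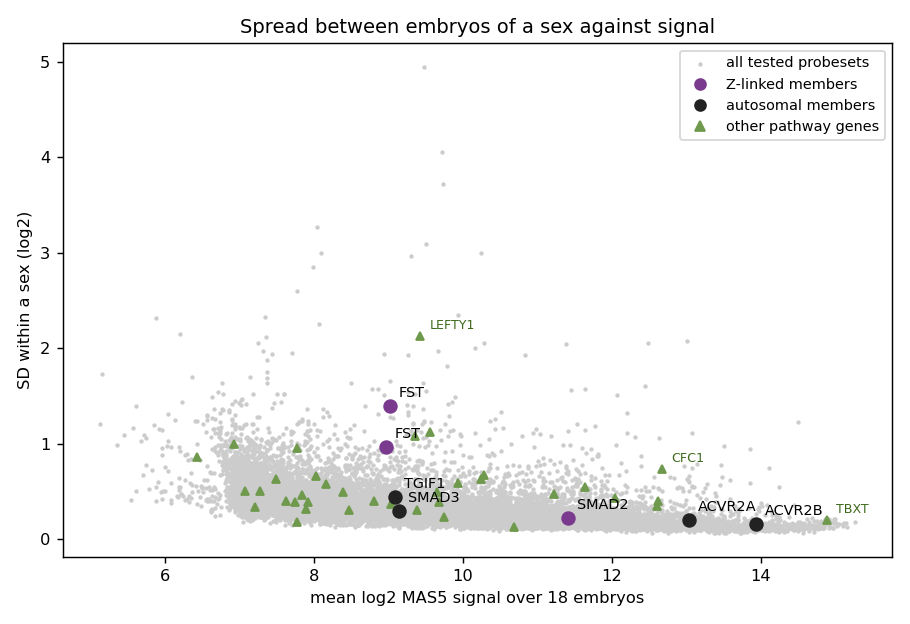
SD of the log2 signal within a sex (vertical axis) against the mean log2 MAS5 signal over 18 embryos (horizontal axis). Grey points are all tested probesets, large points the members on Z (purple) and on autosomes (black), and triangles other pathway genes. FST lies far above probesets of like signal with SDs of 0.96 and 1.39, LEFTY1 higher still, and SMAD2, ACVR2A and ACVR2B lie in the grey mass.

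The spread of FST was shared by its probesets. The deviations of the embryos from the mean of their sex correlated between the FST probesets with r = 0.81 (permutation p = 5e-05, rho = 0.70, permutation p = 0.0015, 18 embryos). Embryos low with one FST probeset were mostly low with the other, females 4 and 7 and male 6 among them.

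Between member genes, 15 pairs of 6 genes were correlated in the same way. A single probeset was used for each gene, and for FST this was the second, more variable one. The pair with the strongest relation was SMAD2 and ACVR2B, with r = 0.905 and rho = 0.88 over 18 embryos (permutation p = 1e-05 for each, the smallest that 100000 resamples can give, adjusted p over the pairs 0.00015). The value was 0.884 within females and 0.951 within males, and 0.838 without female 9 and males 5, 6 and 8. It was 0.874 without female 9 and male 3, the 2 embryos whose SMAD2 signal, sex not removed, lay farthest from the median of all 18. Male 8 was still in that value. Female 9 and male 8 were the lowest embryos of their sex in both genes, and female 8 and male 3 had the highest ACVR2B signals. ACVR2B was the tested probeset most alike to SMAD2 in this measure, and SMAD2 ranked 3rd for ACVR2B, while 14 and 33 probesets correlated with them at r over 0.8. The probeset that the study read as SMAD2 was among these, at r = 0.89 with SMAD2 and 0.91 with ACVR2B.

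The first principal component moved with both genes, at r = 0.75 for SMAD2 (rho = 0.69, adjusted permutation p = 0.0035 over 12 relations) and r = 0.75 for ACVR2B (rho = 0.72, adjusted permutation p = 0.0032). Without the 2 embryos farthest from the median of the component, own sex mean removed, these fell to 0.44 and 0.55. Its part in the relation of the genes was not tested beyond the values without the 4 embryos. With TGIF1 the component correlated at r = -0.56 (adjusted permutation p = 0.06, rho = -0.63, adjusted permutation p = 0.024), and at -0.42 without the 2 farthest embryos. No relation with FST, read by its second probeset, passed (r = -0.15, rho = -0.13, permutation p = 0.55). The other 6 relations were with the ratio of the 3 prime to the 5 prime signal of GAPDH, a sign of RNA quality. It correlated with ACVR2B at r = 0.47 (permutation p = 0.051, rho = 0.44, permutation p = 0.072) and with SMAD2 at r = 0.43 (permutation p = 0.079, rho = 0.48, permutation p = 0.044). None of these 6 passed after adjustment (0.15 and 0.19 for r of these genes), and without the 2 embryos farthest in this ratio r was 0.10 and 0.09. The part of this ratio in the relation of SMAD2 and ACVR2B was not tested.

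TGIF1 ran against both of these genes, but without passing after adjustment. Its deviations correlated with those of SMAD2 at r = -0.594 (rho = -0.579, permutation p = 0.00828, adjusted p = 0.0621) and with those of ACVR2B at r = -0.553 (rho = -0.579, permutation p = 0.0162, adjusted p = 0.0808). The values were -0.73 and -0.816 within females and -0.388 and -0.228 within males. Without female 9 and males 5, 6 and 8 they were -0.51 and -0.407. Without female 9 and male 3, the farthest from the median in SMAD2 signal, the value with SMAD2 was -0.591. Without male 3 and female 8, the farthest in ACVR2B signal, that with ACVR2B was -0.544. After adjustment over the 15 pairs only that of SMAD2 and ACVR2B was past 0.05, and 3 pairs were before it. For SMAD2 and SMAD3 no relation passed over the 18 embryos (r = -0.0348, rho = 0.195, permutation p = 0.892). The value rested on few embryos, since r was 0.177 without female 9 and male 3. It was 0.511 over the 14 embryos left without female 9 and males 5, 6 and 8. The relation of SMAD2 and the second FST probeset did not pass either (r = -0.408, rho = -0.404, permutation p = 0.09, adjusted p = 0.338). Without female 9 and males 5, 6 and 8 r was -0.464. The first FST probeset was not tested in these pairs.

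**Figure D4:**
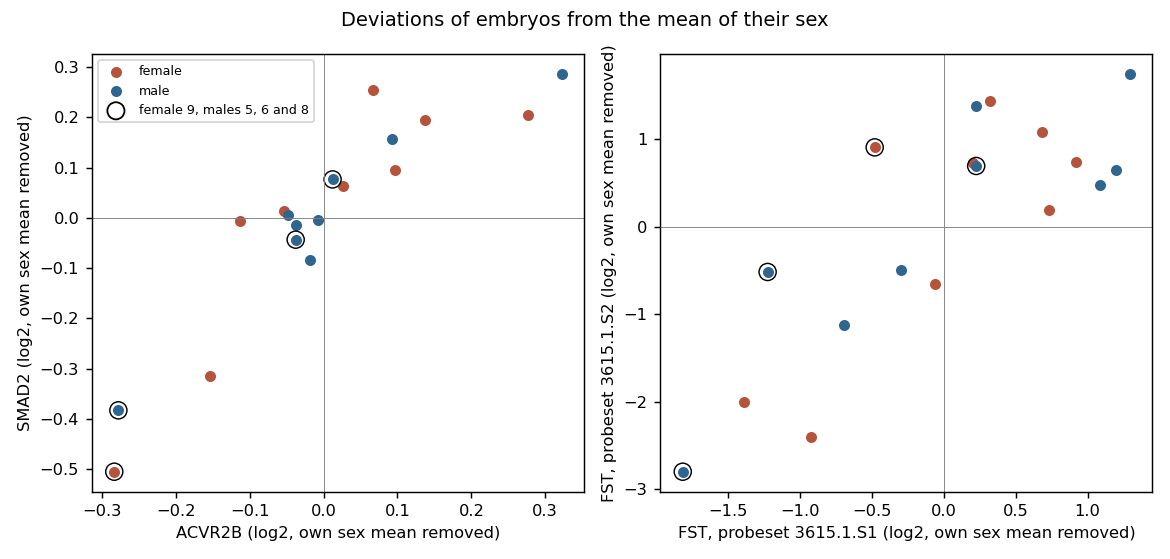
Deviation of each embryo from the mean of its sex in log2 signal. Left, SMAD2 (vertical axis) against ACVR2B (horizontal axis). Right, the FST probesets against each other. Each point is an embryo (red female, blue male), and circles mark female 9 and males 5, 6 and 8. Points rise together in both panels (r = 0.905 and 0.81), with female 9 and male 8 at the low end of the left one.

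Among members over the detection level in all embryos, TGIF1 varied the most, and the tested probesets of other genes with the most similar deviations were those of SYNGR2 (r = 0.82), STK17A (0.81), SERTAD2 (0.81), PLCB1 (0.80) and PHF6 (0.79) over 18 embryos. For FST, which was added to this listing after its values were seen, the first probeset was most like NRP1 (r = 0.84 and 0.82 with its probesets), CSRNP1 (0.83), CDC5L (0.81) and AP2B1 (0.77), and the second was most like APOA2 (0.84) and CSRNP1 (0.79). CSRNP1 was in both of these listings. These values are descriptions, since the probesets are the extremes of all those tested.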

How the data were processed

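The authors deposited MAS5 signals, a linear array intensity per probeset, which their methods describe as made with Affymetrix Microarray Suite 5 from amplified, biotin-labelled RNA of single embryos (the labels name MAS5 and the affy package). The number of arrays limits the precision. Present calls were not used here. A detection level was set on the signal in their place so that about as many probesets passed as the number the study's own filter kept, and a probeset had to reach it in at least 9 of 18 embryos. Z-linked probesets that the study lists as expressed were also kept, 112 of them under the level, and 153 control probesets were left out, which gave 14603 tested probesets. Of these 11712 had 1 gene in the probe annotation, 67 several and 2824 none. Chromosomes and the order of genes along Z came from GRCg7b, and no coordinates are printed, since the build of the array's annotation is not given in the sources used here. No column of another series was present (0 columns not used).

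The signals were log2-transformed as deposited and received no further normalization. The sexes were compared with limma 3.58.1 in R 4.3.3 (lmFit and eBayes, 1 coefficient for sex, Benjamini-Hochberg adjustment over all tested probesets, threshold 0.05), where the study used SAM. Single probesets also had a two-sided exact permutation test over all splits into 9 and 9. Correlations were of deviations from the mean of the own sex, with 100000 resamples. These used Python 3.11.15, NumPy and SciPy. Every embryo was a separate sample. The fit was tested on simulated data with the means and spreads of the tested probesets and 50 changes of each size. It found 13 of the 1.3-fold, 27 of the 1.5-fold, 37 of the 2-fold and 48 of the 4-fold changes, with 2 false calls. A difference that did not pass can therefore still be present.

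The members, the gene lists and the tests were chosen with earlier results of these data known. Named were the members, every gene of the lists past the test, the brightest probeset of up to 3 others per list, and the 5 probesets most like NODAL and like the most variable member over the level in all embryos. For NODAL none is given, since its signals were under the level. Alternatives were other filters, a constant of 32 added, quantile normalization, array weights, a variance trend, a replicate block, and leaving out embryos.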

Additional observations from a re-analysis of the deposited data

How the results depend on the processing

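The count of male-higher members was 1 (SMAD2) and that of female-higher members 0 under every alternative run, and the SMAD2 call held with adjusted p from 9.41e-07 to 0.00041. Among all tested probesets, 374 were male-higher, with 277 to 378 under the 9 alternatives and 346 to 372 when each embryo was left out. The count of female-higher probesets was 40, and it was 17 when at least 10 embryos had to reach 2 times the detection level, a filter that tests fewer probesets, and 33 to 47 when each embryo was left out. Fitting the replicate number as a replicate block gave 332 male-higher and 34 female-higher probesets and a SMAD2 difference of 1.01 (adjusted p = 0.00041), and it changed no call of a member. Same-numbered embryos share only a number: their deviations correlated at -0.241 to 0.208, 4 of 9 pairs were over 0.1, and 1 female correlated best with the male of its number. No called result turned its direction. The SMAD2 and SMAD3 relation, which was not called, went from -0.0348 to 0.177 without female 9 and male 3 and to 0.511 without female 9 and males 5, 6 and 8. The relations of TGIF1 moved within a sex, to -0.39 with SMAD2 in males and to -0.82 in females and -0.23 in males with ACVR2B, and the cause was not tested. Signals under the detection level limit what can be said of NODAL, ACVR1B and ACVR1C, and the SMAD7 and FST values rest partly on embryos near it.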

Other observations

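Several genes that the pathway is known to induce, or that mark the anterior streak and endoderm, had signals far above their median in few embryos. For most of these genes the embryos were the same ones. No cutoff was set for this. CER1 and MIXL1 were over the detection level in 6 and 7 embryos, EOMES and LEFTY1 in 16, and HHEX and CHRD in all 18. The choice of these genes followed from the values themselves, and no test was made. Other genes of the same lists had highest signals closer to their median. TBXT had a median of 30174 and a highest signal of 39141, FOXA2 had 555 and 1006, and the endoderm gene SOX17 had 16470 and 22706. GSC, a target of NODAL and an organizer gene, was over the detection level in 4 embryos, male 8 (3319), female 9 (2163), male 5 (392) and female 6 (134). CER1, a Z-linked antagonist of NODAL, was highest in the same embryos, with 7707, 2481, 690 and 158. The endoderm gene HHEX had its highest signals there as well, 5611 in male 8, 5088 in female 9, 1728 in male 5 and 1060 in female 6, and so had EOMES with 807, 656, 573 and 500. MIXL1 was highest in female 9 (1359), male 8 (1295), male 5 (904) and male 6 (485). LEFTY1 was highest in male 5 (7806), female 6 (6365), male 8 (5445) and male 6 (4124). The organizer gene CHRD differed from this order, with its highest signals in female 6 (5019), male 9 (4596), female 9 (4087) and male 5 (3256), and without male 8 among them.

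These embryos include those that stood apart on the first principal component. The component was computed from signals of the same arrays, so the match is not independent. Female 9 and male 8, the brightest in GSC, CER1 and HHEX, had the lowest SMAD2 signals of their sex (1355 and 2955) and the lowest ACVR2B signals (12991 and 12782). Female 6, male 5 and male 6 did not, with SMAD2 signals of 1937, 3755 and 4070 and ACVR2B signals of 15291, 15041 and 15608. The FST signals of female 9 and male 8 were 243 and 865 with the first probeset, inside the range of the other embryos of their sex.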
